A study of Mus musculus with 4 samples.

Results

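The enzymes of de novo purine and pyrimidine synthesis were followed in mouse embryonic stem cells that lost Exosc3, whose protein belongs to the core of the RNA exosome, the complex that trims and degrades RNA from its 3′ end. The set was chosen by gene name and comprised 10 genes: Ppat, Gart, Pfas, Paics, Adsl, Atic and Impdh2 for purines, and Cad, Umps and Ctps for pyrimidines. Of these, 8 had a row in a table of 22883 gene models, each with 1 row, and all 8 were above the filter on low values in both groups. Ppat and Paics, which encode the committing enzyme of purine synthesis and the bifunctional enzyme of its middle steps, had no row under those symbols and were not analysed here. The cells were Exosc3 conditional knockout (CKO) clones derived from V6.5 embryonic stem cells and grown without feeders. All cultures were derived from clones maintained in doxycycline at 0.1 µg/ml. For 3 days they were either kept in it (Exosc3-present) or grown without it (Exosc3-depleted), with 2 libraries in each group. Doxycycline and Exosc3 therefore cannot be told apart in any comparison. The labels do not say whether the replicates came from separate clones or cultures, so p-values measure only the spread between these samples, which may be technical.

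Cells build purines on ribose phosphate through a linear chain that starts with PRPP (phosphoribosyl pyrophosphate), takes 1-carbon units from folate and ends at inosine monophosphate (IMP). IMP is then turned into AMP or, through IMP dehydrogenase, into GMP. Pyrimidines are made as a free ring first, by the trifunctional protein CAD and the mitochondrial enzyme DHODH, and are joined to ribose phosphate by UMP synthase. CTP synthase then makes CTP from UTP. Fast-dividing cells such as embryonic stem cells draw on these pathways for RNA and DNA, and salvage enzymes recycle bases and nucleosides alongside them.

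Values are FPKM, in which fragments are divided by the length of the gene model and by a library total, so levels can be compared between genes. As recovered from the spacing of the values, the Exosc3-present libraries held 60851774 and 55233386 fragments and the Exosc3-depleted ones 38095698 and 41968325. Of these, 49.7% and 51.8% against 42.4% and 44.0% lay in listed rows, so depth and this share both differed between the groups. The total that divides the values includes fragments outside the listed rows. The 8 genes together held between 65193 and 163144 fragments in a library. Exosc3 was at 24.2 and 23.2 FPKM in the Exosc3-present libraries and at 0.635 and 0.691 FPKM in the Exosc3-depleted ones, so the targeted RNA followed the labels in all 4 libraries. Of the embryonic stem cell markers 8 had a row. Their summed level was 3166 and 3180 FPKM against 1999 and 1362 FPKM, most of it from Dppa5a (2206 and 2230 against 1356.5 and 817 FPKM). Of the 8, 5 were called lower after depletion (Zfp42, Esrrb, Tdgf1, Dppa5a and Lin28a), beside 30.1% of all tested rows. Utf1 and Dppa4 did not pass. Pou5f1, which encodes OCT4, did not pass either and stood at 471 and 434 FPKM against 413 and 286 FPKM. Fibroblast (feeder) markers summed to at most 2.89 FPKM in any library, and Postn, Dcn and Lum were at 0 in all 4. Trophectoderm markers (9 with a row) summed to 25.4 and 28.1 against 143 and 109 FPKM, most of it from the keratin genes Krt8, Krt18 and Krt19, while Eomes fell by 0.57. Primitive endoderm markers (10 with a row) summed to 27.5 and 35.8 against 60.3 and 67.0 FPKM, most of it from Col4a1 and Lama1, while Amn fell by 0.85. Neural markers (6 with a row) summed to 86.3 and 82.8 against 37.8 and 40.4 FPKM. Tubb3, the main part of that sum, fell and Nes rose. Several low members of these lists passed the filter only through the group in which they were high, so no count of their calls is given. The part of these shifts in the results below was not tested. In bulk RNA, fewer cells of a type and less RNA per cell cannot be told apart.

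The RNA of 7 of the 8 enzymes fell in Exosc3-depleted cells and that of Cad did not. The 7 were Gart, Pfas, Adsl, Atic, Impdh2, Umps and Ctps, with ratios of mean FPKM, present over depleted, between 1.68 and 2.65. The summed level of the 8 genes was 975 and 1075 FPKM in Exosc3-present cells and 560 and 471 FPKM in Exosc3-depleted cells. Calls came from limma on log2(FPKM + 0.5), with Benjamini-Hochberg adjustment over all 9336 tested rows and a threshold of 0.05. In that comparison 30.1% of tested rows were called lower and 12.6% higher, and among 1724 rows that averaged 20 FPKM or more, a level that all 8 genes exceeded, 40.3% were lower and 8.87% higher. The median change of the 8 genes was log2 -1.07, beside -0.27 for all tested rows. With other scalings the split between higher and lower rows shifted. Of all called rows 29.6% were higher with the deposited scale, 52.5% after median-of-ratios scaling, 47.0% after quantile normalization and 53.7% after scaling without the 50 highest rows. The median tested row moved from log2 -0.27 to 0.01, -0.05 and 0.03 under these 3, and the median change of the 8 genes relative to it was -0.80 with the deposited scale and -0.76, -0.67 and -0.76 under them. The numbers of enzymes called lower were 7 with the deposited scale and 5 after each of those 3 scalings. The share of all tested rows called lower was 30.1% with the deposited scale and 17.0%, 19.1% and 14.2% under those 3, in that order. Without Exosc3-present replicate 2 the median change of the 8 genes relative to the median tested row was -0.76.

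**Figure D1:**
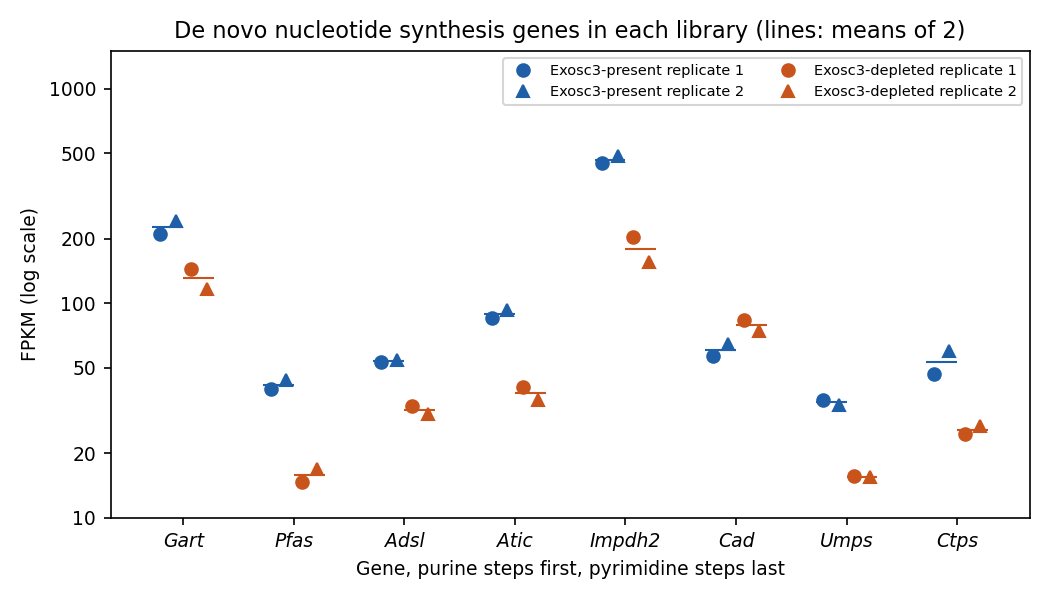
FPKM on a log scale for the 8 genes in each of the 4 libraries, with circles for replicate 1, triangles for replicate 2 and short lines for the means of each group. For Cad both Exosc3-depleted libraries lie above both Exosc3-present ones, and for the other 7 genes both lie below.

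Promoter sequences are shown for 3 genes: Impdh2 and Atic, which fell and whose windows hold the letters marked, and Cad, which did not fall. They were taken from RefSeq on build GRCm38.p6, a later build than the mm9 of the deposited table, and were matched by symbol. Each runs from 250 bases before to 50 bases after the annotated start, 5′ to 3′ on the gene's strand. Capitals mark CACGTG, the E-box letters known as a binding sequence of MYC and related factors.
Impdh2, chr9:108560186-108560485 (+ strand): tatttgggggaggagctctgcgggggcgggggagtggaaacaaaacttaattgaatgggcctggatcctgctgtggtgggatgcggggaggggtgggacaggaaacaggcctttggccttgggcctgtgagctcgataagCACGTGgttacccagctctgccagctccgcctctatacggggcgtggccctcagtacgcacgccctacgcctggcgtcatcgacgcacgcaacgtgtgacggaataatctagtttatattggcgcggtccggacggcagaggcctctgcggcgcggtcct
Atic, chr1:71556906-71557205 (+ strand): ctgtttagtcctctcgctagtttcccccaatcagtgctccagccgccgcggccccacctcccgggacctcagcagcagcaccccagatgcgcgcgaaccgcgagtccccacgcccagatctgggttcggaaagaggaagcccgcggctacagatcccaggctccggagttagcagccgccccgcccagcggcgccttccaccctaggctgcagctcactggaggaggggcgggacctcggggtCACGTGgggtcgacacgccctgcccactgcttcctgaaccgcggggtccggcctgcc
Cad, chr5:31054530-31054829 (+ strand): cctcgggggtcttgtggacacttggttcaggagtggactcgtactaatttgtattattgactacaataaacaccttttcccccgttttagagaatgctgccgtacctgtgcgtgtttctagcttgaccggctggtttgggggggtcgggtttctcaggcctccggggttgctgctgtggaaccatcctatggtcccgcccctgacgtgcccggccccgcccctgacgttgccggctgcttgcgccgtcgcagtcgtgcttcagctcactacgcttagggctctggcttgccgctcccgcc
In Impdh2 the E-box letters begin 110 bases before the start and in Atic 7 bases before it, and in Cad they are not in this window. Sequence further than 50 bases after a start was not searched, so letters there would be missed in any gene. Of the 10 gene names, 9 matched a window, 10 windows in all because Ctps has a pair of starts, and Pfas had none. Over these windows the E-box letters occur in 3 (Impdh2, Atic and Paics), against 7.2% of all 32851 windows of this length. The windows of Gart, Adsl, Umps and Ctps, which fell too, do not hold them, and Paics had no row of expression values. The letters thus do not separate the genes that fell from Cad. The letters TGATGNAA, a motif of ATF4 dimers, occur in 0 of the 10 and in 4.0% of all windows. GGGCGG, the GC box, occurs in 9 of the 10, Cad included, and in 35.7% of all windows. CCAAT occurs in 4 and in 37.4% of all windows. The palindromic motif of NRF1 occurs in 2 (Ctps and Ppat) and in 4.6% of all windows. Motifs were searched on both strands and none of the letters searched contains another. The windows of Atic, Impdh2 and Cad held 69.7%, 61.7% and 59.7% G and C, beside a median of 52.7% over all windows, and letters rich in G and C are more frequent in such sequence by composition. A match is a description of sequence only.

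Among the enzymes that build IMP, all 4 measured genes fell, Pfas and Atic with larger fitted changes than Gart and Adsl but with 95% intervals that overlap. Pfas (uc011xws.1) encodes the amidotransferase that adds a nitrogen from glutamine to the growing purine. It was at 39.9 and 43.7 FPKM in the Exosc3-present libraries and at 14.7 and 16.9 FPKM in the Exosc3-depleted ones. Means were 41.8 ± 2.7 and 15.8 ± 1.5 FPKM (SD, n = 2), a change of log2 -1.38 (SE 0.17, 95% interval -1.79 to -0.97, limma adjusted p = 0.00137). Both depleted libraries lay below both present ones, by more than the distance between replicates. Atic (uc007bjt.2) encodes the bifunctional enzyme that adds the last formyl group and closes the ring to IMP. Its RNA went from 85.3 and 93.2 FPKM to 40.6 and 35.3 FPKM, with means of 89.2 ± 5.5 and 38.0 ± 3.8 (n = 2). The change was log2 -1.22 (SE 0.17, limma adjusted p = 0.00192), and the groups did not overlap. In 50.9% of all tested rows both depleted libraries lay below both present ones, so separation alone is common in this comparison.

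Gart (uc007zxu.1) encodes a trifunctional protein that catalyses separate early steps, including the first transfer of a formyl group from folate. It was at 210 and 241 FPKM in Exosc3-present cells and at 145 and 116 FPKM in Exosc3-depleted cells, without overlap. Means were 226 ± 22 and 130 ± 21 FPKM (n = 2), a change of log2 -0.79 (SE 0.18, 95% interval -1.22 to -0.36, limma adjusted p = 0.0127). The locus is known to make also a shorter RNA that ends within an intron and encodes the first enzyme activity alone. The table had 1 Gart row, with a recovered model length of 3327 bases, so the forms cannot be told apart. Adsl (uc007wvz.1), adenylosuccinate lyase, acts in the IMP chain and again in the branch to AMP. It was at 52.9 and 54.6 FPKM against 33.3 and 30.6 FPKM. Means were 53.8 ± 1.2 and 32.0 ± 2.0 FPKM (n = 2), a change of log2 -0.74 (SE 0.16, limma adjusted p = 0.0107). The calls of both genes depended on the scale. After median-of-ratios scaling Gart was at log2 -0.47 (limma adjusted p = 0.154) and Adsl at -0.43 (0.154), and neither passed after quantile normalization (0.0734 and 0.117) or scaling without the 50 highest rows (0.0766 and 0.0662). Without Exosc3-present replicate 2 Gart (limma adjusted p = 0.138) and Adsl (0.173) did not pass, nor did Adsl without Exosc3-present replicate 1 (0.131).

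Impdh2, IMP dehydrogenase 2, carries out the rate-limiting step from IMP to guanine nucleotides. It had the highest level of the 8 genes in every library. Impdh2 (uc009rqg.1) was at 448 and 485 FPKM in Exosc3-present cells and at 202 and 156 FPKM in Exosc3-depleted cells. Means were 466 ± 26 and 179 ± 33 FPKM (n = 2), a change of log2 -1.39 (SE 0.18, limma adjusted p = 0.00156). Its fall passed under all 18 alternative settings, as did those of Pfas, Atic and Umps. Impdh2 made up 46.0% and 45.1% of the summed FPKM of the 8 genes in Exosc3-present cells and 36.2% and 33.1% in Exosc3-depleted cells. Its paralogue Impdh1 stood far lower, at 16.1 and 16.9 against 12.9 and 9.91 FPKM (log2 -0.53, 95% interval -0.99 to -0.07, limma adjusted p = 0.0666), and did not pass. The ratio of Impdh2 to Impdh1 was 27.8 and 28.6 in Exosc3-present libraries and 15.7 and 15.7 in Exosc3-depleted ones.

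Of the 3 pyrimidine genes Umps and Ctps fell and Cad did not pass the test. Cad (uc008wwz.1) encodes the protein that carries the first activities of the pathway, carbamoyl phosphate synthetase, aspartate transcarbamoylase and dihydroorotase. It was at 56.9 and 64.3 FPKM in Exosc3-present cells and at 83.2 and 74.3 FPKM in Exosc3-depleted cells, so both depleted libraries lay above both present ones. That held for 22.2% of all tested rows. The change was log2 0.38 (95% interval -0.02 to 0.77, limma adjusted p = 0.112), which did not pass. Relative to the median tested row it was 0.65, and 82.4% of tested rows had a lower change than Cad. Cad was called higher after median-of-ratios scaling (log2 0.69, limma adjusted p = 0.0356), quantile normalization (0.78, 0.00774) and scaling without the 50 highest rows (0.72, 0.0151). It did not pass after scaling to the same sum over listed rows (log2 0.47, limma adjusted p = 0.0567), and it passed without Exosc3-depleted replicate 2 (0.46, 0.0169). The fitted change was above 0 in all 18 alternatives. Counting error was small, since single libraries held between 22173 and 25232 Cad fragments.

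Umps (uc007zap.1), UMP synthase, carries the last activities of the pathway to UMP in 1 protein. It was at 35.3 and 33.7 FPKM against 15.7 and 15.5 FPKM, and the replicates of each group lay close together. Means were 34.5 ± 1.2 and 15.6 ± 0.14 FPKM (n = 2) and the groups did not overlap. The change was log2 -1.12 (SE 0.16, limma adjusted p = 0.00238). Ctps (uc008unj.2), CTP synthase 1, was at 46.6 and 59.7 FPKM against 24.7 and 26.9 FPKM, with a wider distance between the Exosc3-present replicates but no overlap between groups. Means were 53.2 ± 9.3 and 25.8 ± 1.6 FPKM (n = 2). The change was log2 -1.02 (SE 0.19, limma adjusted p = 0.00568), and without Exosc3-present replicate 2 it was log2 -0.84 and did not pass (0.105). Its paralogue Ctps2 had no row and was not analysed here.

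**Figure D2:**
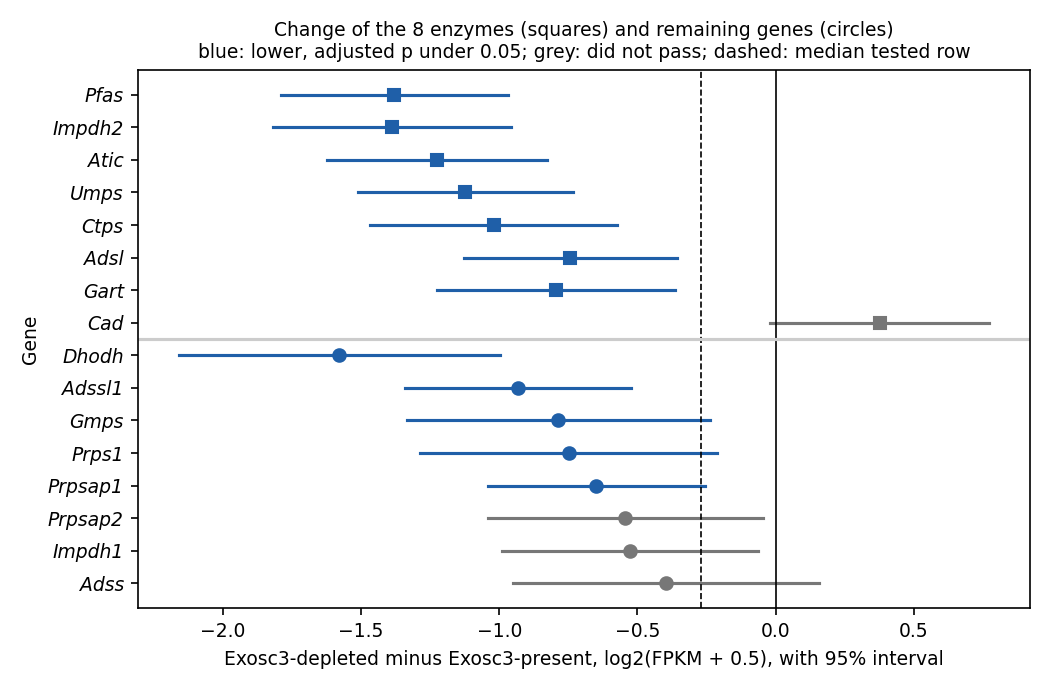
Change in log2(FPKM + 0.5), Exosc3-depleted minus Exosc3-present, with 95% intervals from limma, for the 8 enzymes (squares) and the 8 other tested de novo genes (circles). The dashed line is the median tested row at -0.27. Cad is the one gene of the 16 with an estimate above 0, at 0.38, and its interval includes 0.

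The levels of the 8 genes spanned from 34.5 ± 1.2 FPKM (Umps) to 466 ± 26 FPKM (Impdh2) in Exosc3-present cells. The order there was Impdh2, Gart, Atic, Cad, Adsl, Ctps, Pfas and Umps. Adsl and Ctps were the neighbours in it whose replicates overlapped. In Exosc3-depleted cells the order was Impdh2, Gart, Cad, Atic, Adsl, Ctps, Pfas and Umps, and Pfas and Umps were the neighbours that overlapped. Cad thus stood below Atic in both Exosc3-present libraries and above it in both Exosc3-depleted libraries. Its share of the summed FPKM of the 8 genes was 5.84% and 5.98% in Exosc3-present cells and 14.9% and 15.8% in Exosc3-depleted cells.

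Ratios within a library do not depend on the scale of that library. The pairs below, and those of Impdh2 with Impdh1 and with Hprt, were chosen after the values were seen. Cad RNA was 1.61 and 1.91 times that of Umps in the Exosc3-present libraries and 5.31 and 4.81 times in the Exosc3-depleted ones. The ratio of Cad to Dhodh, the gene of the step between them, went from 1.40 and 1.53 to 4.82 and 7.04. That of Cad to Ctps went from 1.22 and 1.08 to 3.37 and 2.77. For Gart over Pfas the ratio was 5.26 and 5.52 against 9.87 and 6.87, with a wide distance between the Exosc3-depleted replicates. Each of these ratios was separated between groups. With 2 libraries against 2, the exact two-sided permutation test gives p = 0.333 for each, the smallest it allows, so none can pass. The same limit holds for the 2 ratios of Impdh2. Among the other pairs computed, the ratio of Adsl to Adss overlapped between groups, at 2.07 and 1.86 against 1.99 and 1.20.

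**Figure D3:**
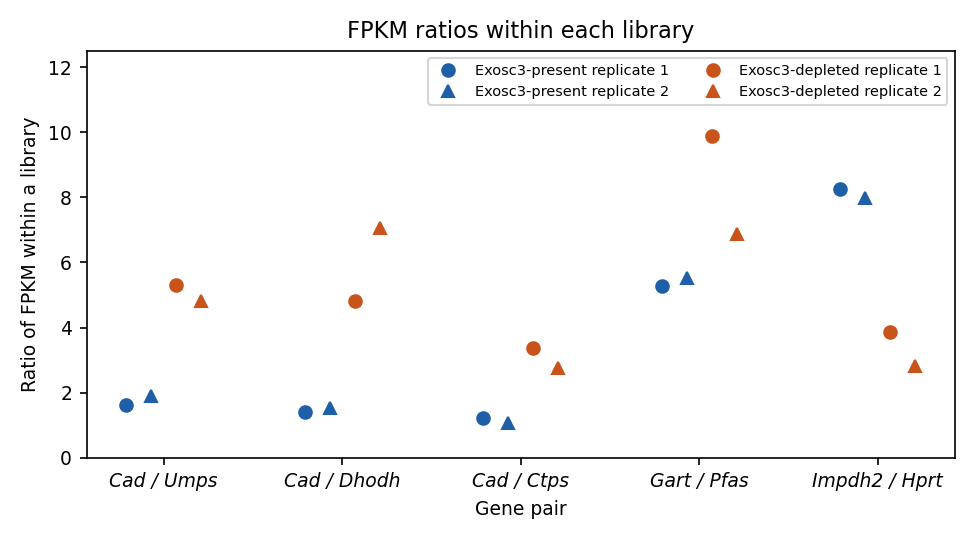
Ratio of FPKM values within each library for 5 gene pairs, with circles for replicate 1 and triangles for replicate 2. Cad over Umps lies at 1.61 and 1.91 in Exosc3-present libraries and at 5.31 and 4.81 in Exosc3-depleted ones, while Impdh2 over Hprt lies at 8.25 and 7.97 against 3.85 and 2.83.

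The other genes of de novo synthesis had no called rise. Of 11 listed, 9 had a row and 8 were tested; 5 fell and 3 did not pass, with a median of log2 -0.70, where 30.1% of all tested rows were lower. Dhodh, which oxidises dihydroorotate in mitochondria, was at 40.6 and 42.1 FPKM against 17.3 and 10.6 FPKM (log2 -1.58, SE 0.25, limma adjusted p = 0.00294). Prps1, which makes PRPP, was at 29.9 and 34.4 against 15.5 and 23.0 FPKM (log2 -0.75, limma adjusted p = 0.0349). Prpsap1, which encodes a protein that associates with PRPP synthetase, fell by 0.65 (limma adjusted p = 0.019), while Prpsap2 (log2 -0.54, limma adjusted p = 0.0751) did not pass. Gmps, which makes GMP from the product of Impdh2, went from 15.0 and 20.8 to 8.72 and 11.5 FPKM (log2 -0.79, limma adjusted p = 0.0317). In the branch to AMP, Adss was at 25.6 and 29.4 against 16.7 and 25.5 FPKM (log2 -0.40, limma adjusted p = 0.211) and did not pass. Its low-level, muscle-enriched paralogue Adssl1 fell from 1.38 to 0.485 FPKM in mean level (limma adjusted p = 0.00574), and it passed the filter on low values only through the Exosc3-present libraries. With the filter at a mean of 2 FPKM, which leaves Adssl1 out, 4 genes of the list were lower, beside 33.5% of all tested rows. The count of 5 fell to 2 after median-of-ratios scaling, quantile normalization or scaling without the 50 highest rows, and to 3 after scaling to the same sum. Of all tested rows 17.0%, 19.1%, 14.2% and 23.8% were called lower under these, in that order. After median-of-ratios scaling the 2 genes called lower were Dhodh and Adssl1. The count also changed with single libraries left out, and so did the share of all tested rows called lower.

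**Figure D4:**
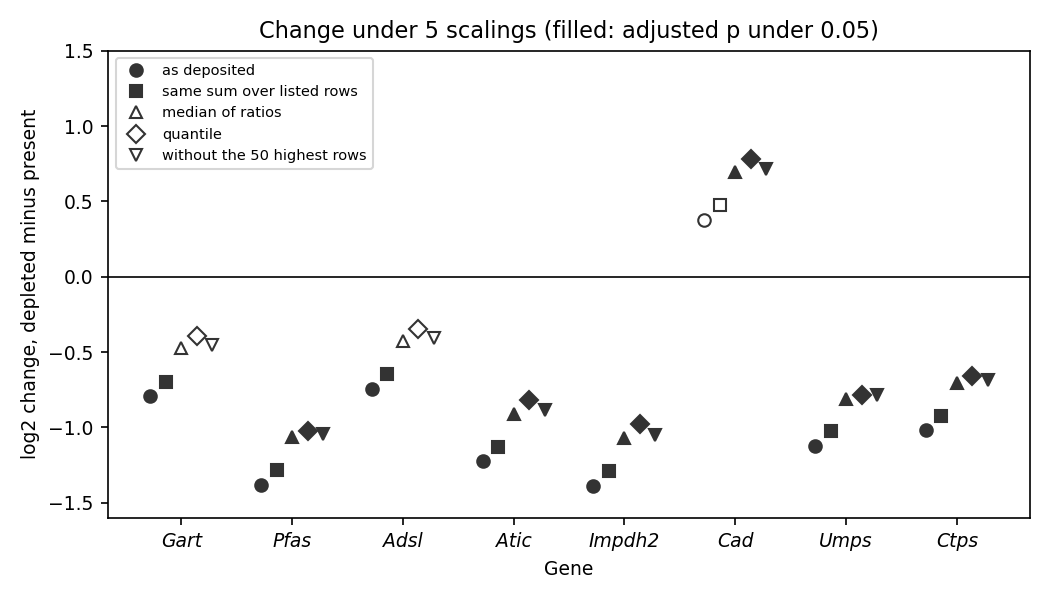
Fitted log2 change of the 8 genes with the deposited scale and 4 other scalings, with filled symbols for an adjusted p under 0.05. Pfas, Atic, Impdh2, Umps and Ctps are lower under each, Gart and Adsl pass with 2 of the 5, and Cad lies between 0.38 and 0.78.

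Genes of purine salvage and breakdown were called at shares near those of all tested rows (30.1% lower, 12.6% higher). Of 15 tested, 5 fell, 2 rose and 8 did not pass, with a median of log2 -0.15. The main salvage enzymes Hprt, which recycles hypoxanthine and guanine, and Aprt, which recycles adenine, did not pass. Hprt was at 54.4 and 60.8 against 52.6 and 55.0 FPKM (log2 -0.09, 95% interval -0.48 to 0.29). Aprt was at 187 and 181 against 219 and 151 FPKM (log2 -0.02, 95% interval -0.51 to 0.47). The ratio of Impdh2 to Hprt was 8.25 and 7.97 in Exosc3-present cells and 3.85 and 2.83 in Exosc3-depleted cells. The phosphorylase genes Pnp (log2 -1.13) and Pnp2 (-1.12), which are close paralogues and may share reads, fell, as did Nudt2 (-1.34), Mtap (-1.11), which recycles methylthioadenosine, and Dguok (-0.71), a mitochondrial deoxyguanosine kinase. Ada, adenosine deaminase, rose from 10.3 and 9.83 to 23.9 and 16.6 FPKM (log2 0.95, limma adjusted p = 0.0123), and the ectonucleotidase gene Nt5e rose by log2 0.75 (limma adjusted p = 0.0418). Both of these calls depended on single Exosc3-present libraries, and so did the share of all tested rows called higher. Hprt, Dguok, Ada and Nt5e were chosen for naming after their values were seen.

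Of 6 tested genes of pyrimidine salvage and breakdown 4 fell and none rose, beside 30.1% and 12.6% of all tested rows. Uck2, which phosphorylates uridine and cytidine, went from 86.0 and 90.9 to 42.7 and 47.8 FPKM (log2 -0.96, limma adjusted p = 0.00411). Upp1, uridine phosphorylase, went from 261 and 248 to 180 and 129 FPKM (-0.74), Dctd, which deaminates dCMP, fell by 0.79 and Nt5c3 by 0.77. The mitochondrial kinase gene Tk2 (log2 -0.23, limma adjusted p = 0.344) did not pass. After median-of-ratios scaling 1 of the 6 was called lower, where 17.0% of all tested rows were. With single libraries left out the count changed, as did the share of all tested rows called lower.

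Genes that supply 1-carbon units to Gart and Atic had calls in both directions. Of 9 tested, 5 fell and 2 rose, beside 30.1% and 12.6% of all tested rows. With the filter set on the Exosc3-present libraries 1 was called higher, since Mthfd2l (0.287 FPKM in mean level against 1.17) passed the filter only through the Exosc3-depleted libraries. Mthfd2, the mitochondrial folate dehydrogenase, was at 33.6 and 37.2 against 2.83 and 2.87 FPKM, and Mthfd1l, which releases formate, went from 34.7 and 42.9 to 7.91 and 9.73 FPKM (log2 -2.08). Shmt1, the cytosolic serine hydroxymethyltransferase, fell by 1.35. Mthfd1, the trifunctional cytosolic enzyme that makes the formyl donor, was at 96.5 and 112 against 113 and 117 FPKM (log2 0.14, limma adjusted p = 0.517) and did not pass. Folr1, a folate receptor, rose from 14.3 and 11.9 to 44.7 and 34.7 FPKM (log2 1.55, limma adjusted p = 0.00151).

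**Figure D5:**
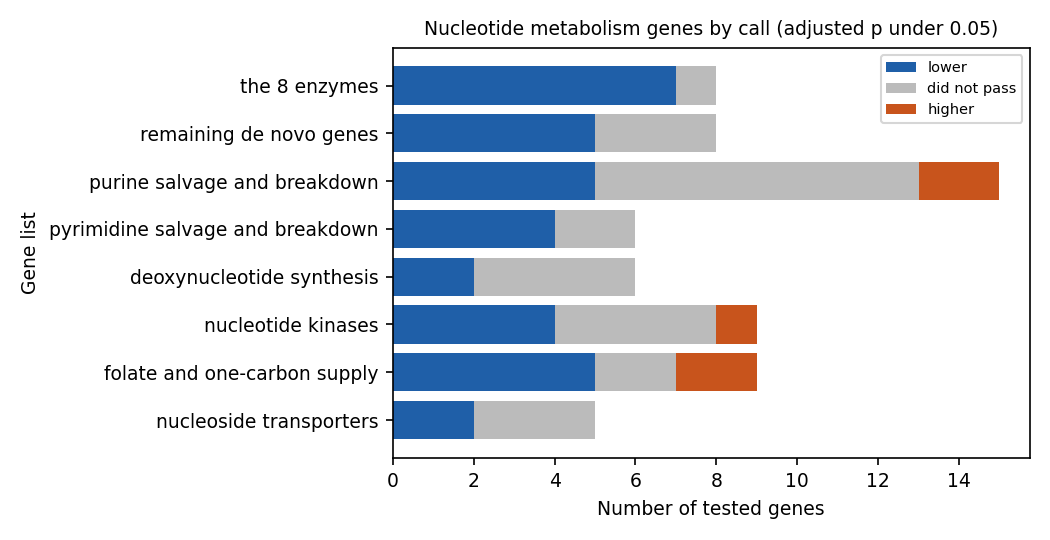
Number of tested genes called lower, called higher or not passing (limma adjusted p under 0.05) in 8 lists of nucleotide metabolism. Of the 8 enzymes 7 are lower, and of the 15 genes of purine salvage and breakdown 5 are lower and 2 higher.

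Transcription factors known to act on these genes were also measured. Myc, a known activator of nucleotide synthesis genes, fell from 4.86 and 4.63 to 2.20 and 2.03 FPKM (log2 -1.01, limma adjusted p = 0.00517). Mycn, the family member with the higher level in these cells, rose from 19.6 and 21.6 to 37.3 and 41.6 FPKM (log2 0.92, limma adjusted p = 0.00574). Neither passed without Exosc3-present replicate 1 (limma adjusted p = 0.0892 and 0.09) or without Exosc3-present replicate 2 (0.0754 and 0.05, the latter just above the threshold). Their partner Max (log2 -0.36, limma adjusted p = 0.174) did not pass and Mxi1, a partner of Max that opposes MYC, fell by 1.27. Atf4, a stress-response factor, fell by 1.41 and the cell cycle factor gene E2f1 by 1.29, while Nrf1 (log2 -0.10, limma adjusted p = 0.665) did not pass. Son, the gene that lies head to head with Gart, was at 16.3 and 20.1 FPKM in Exosc3-present cells and at 13.7 and 26.5 FPKM in Exosc3-depleted cells. Its groups overlapped (log2 0.07, limma adjusted p = 0.870), and its fitted change was 0.53 when Exosc3-depleted replicate 1 was left out and -0.39 when the other depleted library was. Whether any of these factors had a part in the changes of the enzymes was not tested.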

How the data were processed

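Total RNA was depleted of ribosomal RNA and sequenced as stranded paired-end libraries, per the labels' protocols. The authors deposited 1 table of FPKM values for 22883 gene models in 4 columns, 1 a sample, per the file headers. Build mm9 and the tools STAR, Bowtie2, edgeR, bedtools and Picard are named, with no roles, in the submitters' processing notes, and how the FPKM values were computed is not given in the sources used here. Such values divide by a library total, so a few very abundant RNAs can shift all others. A change in the share of fragments outside the listed rows can do the same. The other scalings address such shifts.

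Rows averaging 0.5 FPKM or more (9336) were tested on log2(FPKM + 0.5) with limma 3.58.1 under R 4.3.3, its prior variance following the mean level, with 2 libraries a group and no covariate. This scale understates the change of low genes. P-values are two-sided with Benjamini-Hochberg adjustment over all tested rows, and SE and 95% intervals come from the same fit. Library totals, model lengths and whole fragments were recovered from the spacing of the FPKM values. All 12751 rows above 0 in all 4 libraries came out whole, within 0.004 of a fragment and wider in proportion at high counts. Recovered fragments served depth and a limma-voom fit, which was added, like the share of calls among rows at 20 FPKM or more, after the data were seen. The scripts were tested on simulated data.

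Named genes are the 10 members, the remaining de novo genes, the regulators, and in each other list the 4 genes with the smallest p and the one with the largest. A gene that this rule names is not reported here. Members and lists were chosen with earlier results of these data known, so no set was tested. Protein sequences were not used here. Alternatives covered pseudocount, filter, scaling, variance model, replicate number, summed rows and each library left out.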

Additional observations from a re-analysis of the deposited data

How the results depend on the processing

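The fall of Pfas, Atic, Impdh2 and Umps passed under all 18 alternatives, that of Ctps under 17, Gart under 14 and Adsl under 13. The median change of the 8 enzymes was log2 -0.76 after median-of-ratios scaling, -0.72 after quantile normalization and -0.73 without the 50 highest rows. Relative to all tested rows it was -0.80, and -1.03 with no filter on low values and -0.67 after quantile normalization. The number of enzymes called higher was 0, and 1 (Cad) after median-of-ratios scaling, 1 after quantile normalization and 1 without the 50 highest rows. With single libraries left out it was 0 to 1, the number called lower was 4 to 7, and rows called numbered 1750 (without Exosc3-present replicate 2) to 6334 (without Exosc3-depleted replicate 2), against 3983 with all libraries and 2033 without Exosc3-present replicate 1. In such fits the lone library is assumed to vary like the other group's pair. The SD of the log2 difference was 0.188 in the Exosc3-present pair and 0.432 in the Exosc3-depleted pair. Of 986 values of 55 named genes under alternatives, 70 lost their call and 26 gained one. The sign differed in 19 values of 6 genes (Aprt, Nme6, Nrf1, Samhd1, Son and Tk2), of which 0 had passed with all libraries on the deposited scale. One of the 19 passed, that of Son, whose change with single libraries left out ranged from log2 -0.39 to 0.53.

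With the replicate number as a block (replicate block), 4899 rows and 7 enzymes were called, none of them Cad. The differences between replicates 1 and 2 correlated across rows at r = 0.244 between groups, but the labels tie the numbers to nothing shared, so the samples share only a number, and with 2 numbers no further check of pairing can be had. Counts in other lists also moved by over 1.5 times. The share of all tested rows called lower was 14.2% to 23.8% under the 4 scalings, in place of 30.1%. Across the 4 scalings 1 to 2 nucleotide kinase genes were lower in place of 4, 1 to 4 pyrimidine salvage genes in place of 4 and 3 to 5 purine salvage genes in place of 5. Under the same scalings deoxynucleotide synthesis genes called lower numbered 1 to 2 in place of 2, and nucleoside transporters 1 to 2 in place of 2. Folate genes called higher numbered 2 to 3 in place of 2, where 13.4% to 18.8% of all tested rows were higher in place of 12.6%. With single libraries left out the counts of these lists changed as well, and so did the shares of all tested rows called. Depth limits the enzymes' values little, since each held at least 1922 fragments in each library.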

Other observations

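Enzymes that carry nucleotides onward were also measured. Of 9 tested nucleotide kinase genes 4 fell and 1 rose, beside 30.1% and 12.6% of all tested rows. With other scalings 1 to 2 were lower, where 14.2% to 23.8% of all tested rows were. Ak1, a cytosolic adenylate kinase, rose from 15.0 and 13.1 to 73.7 and 55.8 FPKM (log2 2.15, limma adjusted p = 0.000508), so both Exosc3-depleted libraries lay above both Exosc3-present ones. Guk1, guanylate kinase, fell by 1.10, and Nme1, a nucleoside diphosphate kinase whose close paralogue Nme2 may share its reads, by 0.65, whereas Nme6 (log2 0.04, limma adjusted p = 0.872) did not pass.

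Of 6 tested genes of deoxynucleotide synthesis 2 fell, a share near the 30.1% of all tested rows. Rrm2, the regulated subunit of ribonucleotide reductase, went from 72.0 and 84.6 to 29.6 and 39.0 FPKM (log2 -1.19, limma adjusted p = 0.00385), and Tyms, thymidylate synthase, fell by 0.73 (limma adjusted p = 0.0194). The nucleotide pool hydrolase genes Dctpp1 (log2 -0.49), Samhd1 (-0.29) and Itpa (0.09) did not pass. Of 5 tested nucleoside transporters 2 fell, again near that share. The equilibrative transporter gene Slc29a1 went from 83.8 and 87.5 to 48.4 and 39.1 FPKM (log2 -0.97, limma adjusted p = 0.00543) and the concentrative transporter gene Slc28a1 fell by 0.88. Slc29a2 (log2 -0.43), Slc29a3 (-0.44) and Slc29a4 (0.43) did not pass.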
